A study of Rattus norvegicus with 6 samples.

Results

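The class 3 semaphorins and their receptors were followed in crushed rat sciatic nerve by RNA sequencing. The 10 genes were taken by name from the mRNA table, which listed 30957 genes. They are the 7 secreted ligands Sema3a, Sema3b, Sema3c, Sema3d, Sema3e, Sema3f and Sema3g, the 2 neuropilin co-receptors Nrp1 and Nrp2, and the receptor plexin D1 (Plxnd1). All 10 were found, and all 10 passed the filter on low counts, as did 15195 of the 30957 genes.

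The nerves came from Sprague-Dawley rats that the study's methods give as 1 month old. Each of 3 groups had 2 rats, named a and b: a control group, a group taken 4 days after crush (D4) and a group taken 7 days after crush (D7). In the D4 and D7 rats the left sciatic nerve was clamped with forceps, while the labels call the control nerves normal and the methods describe a control operation with no clamp, so a sham operation in the controls is stated by only 1 of these sources. Total RNA of the nerve was depleted of ribosomal RNA and sequenced as paired ends, and the sources used here do not give how far from the clamp the sampled piece lay. A crush leaves the nerve sheath largely in place, and the cell bodies of the motor and sensory neurons lie outside the sampled tissue. The mRNA libraries held between 18727255 and 25350886 counts.

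Class 3 semaphorins are secreted guidance proteins that turn back or attract growing axons, migrating cells and vessels. Most of them bind a neuropilin, which has little signalling of its own and works with an A-type plexin in the same membrane, whereas Sema3e binds plexin D1 directly. Neuropilins also bind vascular endothelial growth factors, and in peripheral nerve the family is known from axon growth, Schwann cell and fibroblast contacts and vessels.

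The tissue was checked against marker genes. The 5 repair Schwann cell genes (Ngfr, Gdnf, Shh, Olig1 and Artn) summed to 31.2 and 32.3 CPM (counts per 1000000 library counts, the library size adjusted by the trimmed mean of M values, TMM) in control, 1935 and 2071 CPM at D4, and 1081 and 1141 CPM at D7. Most of this sum was Ngfr in control, and nearly all of it in the crushed nerves. Ngfr was at 22.9 and 20.9 CPM in control, where Shh was at 6.90 and 9.95 CPM. It was at 1864 and 1979 CPM at D4, and 1109 and 1051 CPM at D7. Of the 5 genes, 4 rose at both times, and Olig1, under 1 CPM in every library, passed at neither. In bulk nerve, fewer cells of a type and less RNA per cell cannot be told apart, and this holds for every level below.

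Differences are given as log2 fold changes from 1 edgeR quasi-likelihood fit over all 15195 genes, with the standard error (SE) and the Benjamini-Hochberg adjusted p over all of them. A gene is said to have risen or fallen only where the adjusted p was under 0.05 and the change at least 2-fold. At D4 this held for 1 of the 10 genes, Sema3e, which rose, where 21.9% of all tested genes passed, 11.2% higher and 10.7% lower. At D7 against control it held for 3 of 10, with Sema3e higher and Sema3d and Sema3f lower, where 18.8% of all tested genes passed, 9.83% higher and 9.02% lower. Between D7 and D4 it held for 1 of 10, Sema3g, which was higher at D7, where 2.18% passed, 1.68% higher and 0.494% lower. By the adjusted p alone, at any fold, 3 of the 10 passed at D4 (Sema3e, Plxnd1 and Sema3g), 4 at D7 (Sema3e, Sema3d, Sema3f and Sema3g) and 1 between D7 and D4, where 44.2%, 37.5% and 4.67% of all tested genes did. The median log2 fold change of the 10 genes was -0.09 at D4, -0.15 at D7 and -0.13 between D7 and D4, beside medians of -0.04, 0.01 and 0.01 over all tested genes. As a group the 10 genes thus lay near all other genes, and what moved was single members. The comparisons of D4 and of D7 with control share the same 2 control nerves.

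**Figure D1:**
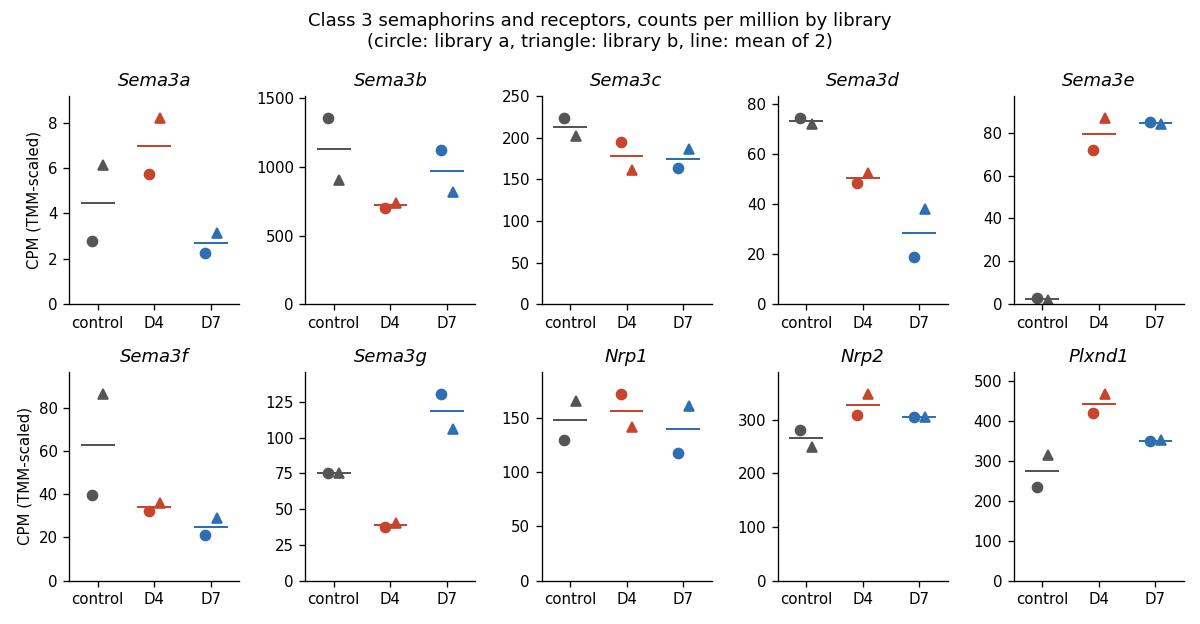
Level of each of the 10 genes in each library, in TMM-scaled CPM (linear axes from 0). Circles are library a, triangles library b, and lines the mean of the 2 libraries of a group; Sema3e stands at 1.87 and 2.94 CPM in control and between 71.9 and 86.9 CPM after crush, while Sema3g dips at D4 and is highest at D7.

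The sequences just before the start sites of Sema3e, Sema3g and Sema3d, which are 3 of the 4 ligands that passed the thresholds in a comparison, are shown so that each gene can be tied to its upstream region. They are the 250 bases before the RefSeq start on the rat build GRCr8, read 5′ to 3′ on the gene's strand, and are at chr4:21510375-21510624 (minus strand) for Sema3e, chr16:6419775-6420024 (plus strand) for Sema3g and chr4:23460972-23461221 (minus strand) for Sema3d. The count files use Rnor_6.0, and the coordinates of the 2 builds are not compared. Capitals mark matches, on either strand, to the 5 motifs searched.
Sema3e: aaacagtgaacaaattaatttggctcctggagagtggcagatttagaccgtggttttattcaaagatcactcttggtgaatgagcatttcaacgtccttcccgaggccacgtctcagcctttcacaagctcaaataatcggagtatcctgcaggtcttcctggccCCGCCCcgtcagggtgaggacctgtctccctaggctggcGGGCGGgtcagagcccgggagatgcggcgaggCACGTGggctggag
Sema3g: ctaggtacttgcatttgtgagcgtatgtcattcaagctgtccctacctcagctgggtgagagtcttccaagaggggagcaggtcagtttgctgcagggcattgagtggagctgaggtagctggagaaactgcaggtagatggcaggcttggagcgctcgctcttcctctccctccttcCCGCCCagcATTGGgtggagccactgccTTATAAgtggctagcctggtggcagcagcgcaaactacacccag
Sema3d: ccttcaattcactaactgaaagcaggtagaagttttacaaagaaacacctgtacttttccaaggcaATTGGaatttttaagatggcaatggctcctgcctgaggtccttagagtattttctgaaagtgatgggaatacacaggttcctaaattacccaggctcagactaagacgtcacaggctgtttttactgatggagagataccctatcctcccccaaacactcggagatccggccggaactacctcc

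The motifs searched for were 5. One was the GC box, spelled GGGCGG. Another was the TATA element, searched as TATAA, and a further one was the CCAAT box. The others were the AP-1 site, spelled TGANTCA, and the E-box, spelled CACGTG. The Sema3e window held 2 GC boxes, 1 E-box and 13 CG dinucleotides. The Sema3g window held 1 GC box, 1 CCAAT letter run and the run TTATAA, which reads as TATAA on both strands. The Sema3d window held 1 CCAAT run and 4 CG dinucleotides, and none of the 3 windows held the AP-1 letters. Of 33469 rat promoter windows of the same length, 30.5% held a GC box, 24% the TATA letters, 34% a CCAAT box, 6.34% the AP-1 letters and 5.59% the E-box, and the median window held 5 CG dinucleotides with quartiles of 2 and 15. Such matches describe the sequence and show no binding. RefSeq windows were found for 7 of the 10 genes, and not for Sema3a, Sema3b and Sema3f.

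Sema3e, the ligand of plexin D1 that acts as a repellent for vessels and axons, rose strongly at both times. It gave 57 and 31 counts in the control nerves, 1753 and 2352 at D4, and 1807 and 1702 at D7. In CPM the control nerves were at 2.94 and 1.87, the D4 nerves at 71.9 and 86.9, and the D7 nerves at 84.8 and 84.2. All 4 crushed nerves were far above both controls, and the D7 values lay between the 2 D4 values. The log2 fold change in edgeR was 5.03 ± 0.22 (SE) at D4, or 32.7-fold, with an adjusted p of 0.000119, and 5.12 ± 0.22 at D7, or 34.8-fold, with an adjusted p of 0.000213. Between D7 and D4 the difference was 0.09 with a 95% interval of -0.32 to 0.50, so the test found no further change and leaves room for one of less than that size. Sema3e passed both thresholds under 13 of 13 other settings at each time. Ngfr, Gdnf, Shh and Artn of the repair Schwann cell markers were high in the same 4 nerves and low in the same 2. From D4 to D7, unlike Sema3e, Gdnf fell (log2 fold change -2.29, adjusted p = 0.0117 in edgeR), as did Shh (-1.30, adjusted p = 0.0343). Ngfr was lower by less than 2-fold (-0.83, adjusted p = 0.0196), and Artn did not pass (-0.14, adjusted p = 0.792). The part of these markers in the Sema3e result was not tested.

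Sema3g, a neuropilin-2 ligand known from arterial endothelium, was the member that differed most between the 2 times after crush. Its CPM was 75.4 and 75.1 in control, 37.2 and 40.3 at D4, and 130.3 and 106 at D7. The 3 groups did not overlap: D4 was the lowest, control lay between, and D7 was the highest. From D4 to D7 it was 3.05-fold higher, with a log2 fold change of 1.61 ± 0.12 (SE) and an adjusted p of 0.0117 in edgeR. Against control the differences had adjusted p-values of 0.00179 at D4 (log2 fold change -0.96 ± 0.12) and 0.00896 at D7 (0.65 ± 0.12) in edgeR, but both were under 2-fold. The difference between D7 and D4 missed the threshold without D4 nerve a (1.55) and without D4 nerve b (1.67), fits that leave D4 without a replicate. The 5 endothelial genes found of the 6 listed (Pecam1 was not matched) summed to 750 and 1391 CPM in control. Their sum was 560 and 496 CPM at D4 and 280 and 476 CPM at D7. Genes of myelinating Schwann cells moved with Sema3g from D4 to D7. Prx rose from 35.7 and 36.9 CPM at D4 to 1319 and 827 CPM at D7, Mag from 1.52 and 1.92 CPM to 133 and 76.5 CPM, and Pmp22 from 257 and 308 CPM to 2039 and 1236 CPM. Mbp was at 775 and 741 CPM at D4 and 1993 and 1262 CPM at D7, with an adjusted p of 0.0947 in edgeR. Unlike Sema3g, these 4 genes were lower at D7 than in both control nerves. The part of either cell type in the Sema3g values was not tested.

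Sema3d, a ligand that works through neuropilins, stood lower at D7 than in control. Its CPM was 74.3 and 71.8 in control, 48.3 and 52.5 at D4, and 18.7 and 37.9 at D7. The groups did not overlap and were ordered control, D4, D7, and the 2 D7 nerves were far apart. At D7 it fell 2.58-fold against control, with a log2 fold change of -1.37 ± 0.30 (SE) and an adjusted p of 0.0164 in edgeR. At D4 the value was -0.54 ± 0.30 with an adjusted p of 0.188 in edgeR. Without D7 nerve a the D7 difference was -0.92, under 2-fold, with an adjusted p of 0.0077. D7 nerve a also had a sum of the 4 adipocyte genes (Adipoq, Plin1, Cidec and Lep) of 4.41 CPM, beside 351 CPM in D7 nerve b, 123 and 252 CPM at D4, and 888 and 1098 CPM in control. The 5 fibroblast genes did not move together. Their sum was 28002 and 29414 CPM in control, 19524 and 18018 CPM at D4, and 13919 and 15625 CPM at D7, and most of it was Col1a1. Dcn was also lower in all 4 crushed nerves than in both controls, whereas Pdgfra was higher after crush, at 327 and 337 CPM in control, 506 and 555 CPM at D4, and 430 and 499 CPM at D7. Lum differed from control by -0.05 at D4 and -0.21 at D7 on the log2 scale, under the thresholds, and Col1a2 was at 0 in every library. The part of either cell type in the Sema3d result was not tested.

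Sema3f, which acts mainly through neuropilin 2, had CPM values of 39.8 and 86.3 in control, 32.3 and 36.1 at D4, and 21.0 and 28.8 at D7. All 4 crushed nerves were below both controls, and control nerve b was far above control nerve a. At D7 it fell 2.53-fold, with a log2 fold change of -1.34 ± 0.36 (SE) and an adjusted p of 0.0318 in edgeR, and at D4 the value was -0.88 ± 0.36 with an adjusted p of 0.0914. The D7 result missed the thresholds in 7 of 13 other settings, among them leaving out control nerve b (-0.68, adjusted p = 0.0633), D4 nerve a (adjusted p = 0.0643), D4 nerve b (adjusted p = 0.0647), D7 nerve a (adjusted p = 0.141) or D7 nerve b (adjusted p = 0.0574). Control nerve b also had the highest sum of the 5 pericyte and smooth muscle genes, 5253 CPM beside 1135 CPM in control nerve a and 604 to 1066 CPM in the crushed nerves. All 5 were higher in control nerve b than in control nerve a, and most of the gap was Acta2 (1722 against 241 CPM) and Myh11 (2622 against 298 CPM). Of the endothelial genes, Vwf was at 909 CPM in control nerve b against 342 CPM in control nerve a, and Tek and Tie1 were higher there too, but Cdh5 (169 against 177 CPM) and Emcn (35.1 against 40.3 CPM) were not. The part of these cells in the Sema3f values was not tested.

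The other 3 ligands passed the thresholds in none of the 3 comparisons. Sema3a, the ligand best known for collapsing growth cones, gave few counts, 54 and 102 in control, 140 and 222 at D4, and 48 and 63 at D7. In CPM it was at 2.78 and 6.15 in control, 5.75 and 8.20 at D4, and 2.25 and 3.12 at D7. The control nerves overlapped with both times, while D4 stood above D7, a log2 fold change of -1.38 ± 0.43 (SE) from D4 to D7 with an adjusted p of 0.121 in edgeR. The same difference passed in DESeq2 (-1.42, adjusted p = 0.0335) and in an edgeR fit of only D4 and D7 (-1.39, adjusted p = 0.0483), so the call depended on the fit. Without control nerve b, Sema3a also passed at D4 against control (1.32, adjusted p = 0.0461 in edgeR), where with all libraries the value was 0.65 with a 95% interval of -0.37 to 1.67.

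Sema3b, a ligand of both neuropilins, was the most abundant ligand per transcript length (FPKM) in every library, and stood at 1356 and 906 CPM in control, 703 and 740 CPM at D4, and 1124 and 818 CPM at D7. Both D4 nerves were below both controls, and D7 overlapped with control. The log2 fold change was -0.65 ± 0.23 (SE) at D4 with an adjusted p of 0.0639 in edgeR, and -0.22 at D7 with a 95% interval of -0.78 to 0.34. Sema3c, known from heart outflow tract development and also able to use plexin D1, varied little. It stood at 224 and 202 CPM in control, 195 and 161 CPM at D4, and 163 and 186 CPM at D7. The 95% interval of its log2 fold change was -0.58 to 0.06 at D4 and -0.60 to 0.04 at D7, so a 2-fold change lay outside both.

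Of the 3 receptors, none rose or fell by the thresholds at either time in edgeR or in DESeq2, and at an unadjusted p under 0.05 in edgeR 2 of 3 passed at D4, Nrp2 and Plxnd1, and 0 at D7, where 53.2% and 48.4% of all tested genes did. Nrp1, the co-receptor that Sema3a needs, was at 130.0 and 166 CPM in control, 172 and 142 CPM at D4, and 118 and 161 CPM at D7, and the groups overlapped in all 3 comparisons. Its log2 fold change had a 95% interval of -0.40 to 0.57 at D4 and of -0.57 to 0.40 at D7. Nrp2, the co-receptor of Sema3f and Sema3g, was at 281 and 248 CPM in control, 308 and 347 CPM at D4, and 305 and 305 CPM at D7. Its crushed nerves were all above both controls, by a log2 fold change of 0.31 ± 0.11 (SE) at D4 with an adjusted p of 0.0621 in edgeR and of 0.21 ± 0.11 at D7 with an adjusted p of 0.183.

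Plxnd1, the receptor of Sema3e, was at 235 and 314 CPM in control, 419 and 467 CPM at D4, and 349 and 351 CPM at D7. All crushed nerves were above both controls, and D4 was above D7. At D4 the log2 fold change was 0.69 ± 0.15 (SE), or 1.61-fold, with an adjusted p of 0.0137 in edgeR, which is under the 2-fold threshold. At D7 it was 0.35 ± 0.15 with an adjusted p of 0.12. Plexin D1 is known from endothelial cells and macrophages, and the 5 macrophage genes (Cd68, Csf1r, Adgre1, Itgam and Aif1) summed to 171 and 147 CPM in control, 580 and 571 CPM at D4, and 381 and 474 CPM at D7, in the same order of groups as Plxnd1. All 5 macrophage genes rose at both times, and Cd68 and Adgre1 overlapped between D4 and D7. The sum of the endothelial genes found was highest in control, unlike Plxnd1. It was 750 and 1391 CPM in control, 560 and 496 CPM at D4, and 280 and 476 CPM at D7, though Tie1 overlapped with control. The part of either cell type in the Plxnd1 values was not tested.

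**Figure D2:**
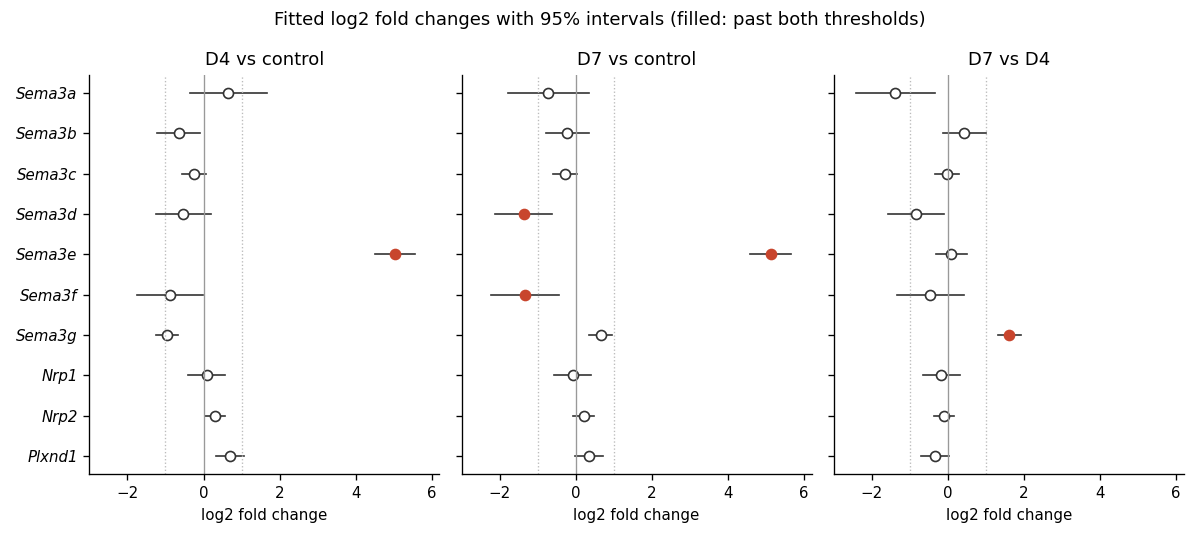
Fitted log2 fold change (horizontal axis) of each gene in each of the 3 comparisons, with bars for the 95% interval and dotted lines at a 2-fold change. Filled points passed both thresholds: Sema3e at 5.03 and 5.12 against control, Sema3d at -1.37 and Sema3f at -1.34 at D7, and Sema3g at 1.61 between D7 and D4.

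Counting values that do not overlap between the 2 nerves of each group gives a looser view. At D4, 8 of the 10 genes did not overlap with control, where 76.2% of all tested genes did not. At D7 this was 7 of 10, where 71.9% of all tested genes did not overlap, and between D7 and D4 it was 7 of 10, where the share of all was 60.6%. These shares are close to those of the whole table, and nothing about the 10 genes is read from them.

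Levels of different genes were compared as FPKM (fragments per transcript length and sequencing depth), which the authors computed. In control nerve Sema3b was highest, at 466 and 319 FPKM. Plxnd1, Sema3c and Nrp2 followed at 33.2 to 45.6 FPKM and could not be ordered, since their ranges overlapped. Nrp1 and Sema3g, at 16.2 to 21.2 FPKM, overlapped too. Sema3d (12.8 and 12.9 FPKM), Sema3f (4.62 and 10.3), Sema3a (0.709 and 1.61) and Sema3e (0.450 and 0.294) came below, each clear of its neighbour. Sema3e was thus the lowest of the 10 in control nerve.

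At D4 the order was Sema3b, Plxnd1, Nrp2, Sema3c, Nrp1 and then Sema3e, which had 13.6 and 16.5 FPKM and had passed Sema3g, Sema3d, Sema3f and Sema3a. Only Sema3g and Sema3d overlapped there, at 10.4 to 11.3 FPKM. At D7 Sema3g, at 36.4 and 30.2 FPKM, stood level with Sema3c (34.2 and 39.5 FPKM) and above Nrp1, and Sema3e, at 16.0 and 16.1 FPKM, came next after Nrp1. Sema3d and Sema3f overlapped at D7, and Sema3a was the lowest at D4 and D7.

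**Figure D3:**
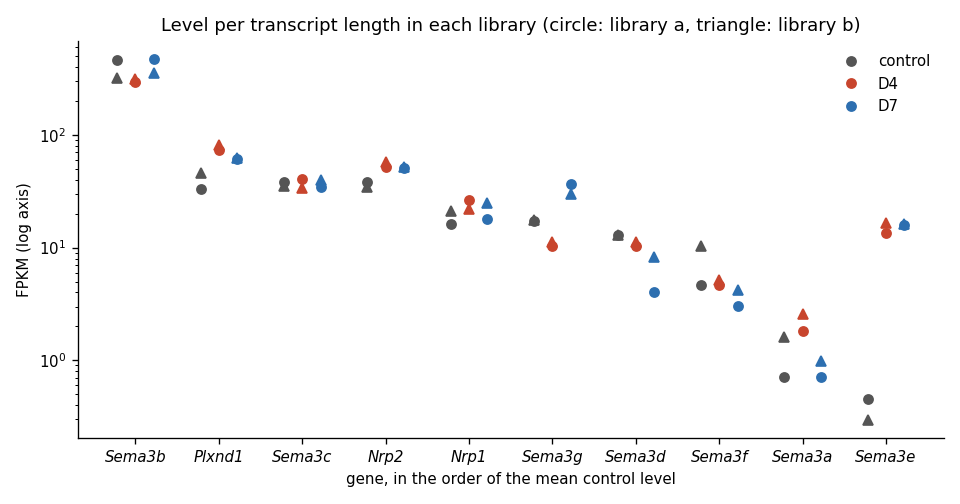
FPKM (log axis) of the 10 genes in each library, ordered by their mean control level. Circles are library a, triangles library b, and colours the groups; Sema3e moves from the bottom, at 0.294 and 0.450 FPKM, to between 13.6 and 16.5 FPKM after crush, while the other 9 genes keep within a narrower range.

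As a share of the summed FPKM of the 7 ligands, Sema3b made up 78.0% to 86.3% in every library. Sema3e made up 0.0833% and 0.0740% in control, 3.58% and 4.17% at D4, and 2.81% and 3.58% at D7. Sema3g made up 3.17% and 4.40% in control, 2.74% and 2.86% at D4, and 6.38% and 6.69% at D7. These shares are sums over few genes and are dominated by Sema3b, whose 2 control nerves differed by themselves. Set against its own receptor, Sema3e was at 1.35% and 0.644% of the Plxnd1 FPKM in control, at 18.6% and 20.2% at D4, and at 26.3% and 26.0% at D7. The receptor therefore stayed above its ligand in transcript level in every library. Nrp2 exceeded Nrp1 in every library, by 1.63 to 2.82 times in FPKM, with no separation of the groups.

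In Rnor_6.0, 5 of the 10 genes lie on chromosome 4. Sema3c (chr4:14318274-14490446), Sema3e (chr4:17272511-17594598), Sema3a (chr4:18178656-18396035) and Sema3d (chr4:19224310-19413484) lie together in 5.10 Mb, and Plxnd1 is far from them at chr4:147854309-147893992. No gene is listed between Sema3a and Sema3d, and 4 genes, none of them tested, lie between Sema3e and Sema3a. Within this stretch Sema3e rose at both times, Sema3d fell at D7, and Sema3a and Sema3c passed in neither comparison with control. Sema3b (chr8:116354073-116361343) and Sema3f (chr8:116437696-116469915) are 76.4 kb apart, with 2 tested genes between them that passed in none of the comparisons. Sema3g is at chr16:7303578-7315390, Nrp1 at chr19:61332351-61485858 and Nrp2 at chr9:69497121-69612087.

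Long noncoding RNAs (lncRNAs) were measured in the same libraries, in a table of 22721 transcripts of which 14077 passed the filter, with 2694777 to 3043817 counts a library. Within 10 kb of the 10 genes lay 15 lncRNAs near 8 of them, and none near Nrp1 or Plxnd1. Of the 15, 9 could be tested. At D4, 5 of the 9 rose and none fell, where 10.1% of all tested lncRNAs passed and 5.19% rose. At D7, 4 of the 9 rose, where 5.79% of all passed and 3.0% rose. Between D7 and D4 none passed in edgeR, where 0.249% of all did, and 4 of the 9 had an unadjusted p under 0.05, where 12.5% of all had.

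The 4 lncRNAs that rose at both times were the 4 that lie inside the span of Sema3e. NONRATT021162.2 (chr4:17315508-17316646) gave 6 and 8 counts in control, 238 and 341 at D4, and 294 and 213 at D7, with a log2 fold change of 5.17 ± 0.34 (SE) at D4 and an adjusted p of 0.00239 in edgeR. Its neighbour NONRATT021161.2 (chr4:17314741-17315458) gave 8 and 2, 107 and 129, and 93 and 113 counts in the same order. Both were about as high at D7 as at D4. MSTRG.19354.1 (chr4:17512550-17516491), an lncRNA predicted in the study, gave 8 and 10 counts in control, 168 and 238 at D4, and 343 and 342 at D7. MSTRG.19356.1 (chr4:17526992-17535988), also predicted there, gave 28 and 32, 425 and 608, and 846 and 744 counts. The D7 counts of these 2 were above their D4 counts, but the differences of 0.83 and 0.70 on the log2 scale had adjusted p-values of 0.258 and 0.299 in edgeR. The sources used here do not say that the counting used strand, so reads of Sema3e introns or exons and of these lncRNAs cannot be told apart, and the 5 features are not independent.

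**Figure D4:**
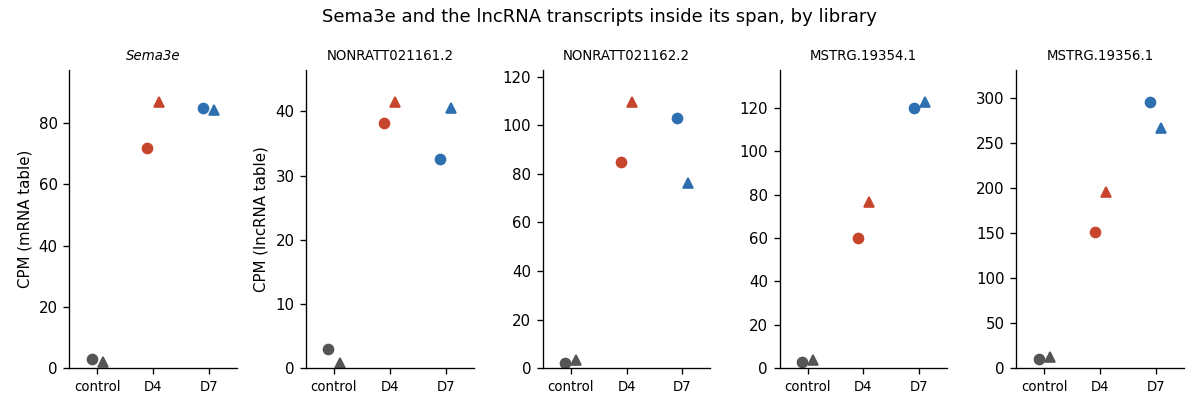
Level of Sema3e and of the 4 lncRNAs inside its span in each library, in CPM of the mRNA table (Sema3e) or of the lncRNA table (linear axes from 0). Circles are library a and triangles library b; every panel shows the 2 control libraries near 0 and the 4 libraries of crushed nerve far above them.

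The lncRNA that passed at D4 and not at D7 was NONRATT028969.2 (chr8:116371175-116373043), 9.83 kb from Sema3b. It gave 87 and 92 counts in control, 397 and 351 at D4, and 192 and 170 at D7, with a log2 fold change of 1.90 ± 0.21 (SE) and an adjusted p of 0.00763 in edgeR at D4, and of 0.91 with an adjusted p of 0.0656 at D7. The fit found no difference between D7 and D4 past the threshold (-0.99, adjusted p = 0.177). The other tested lncRNA near Sema3b, NONRATT028968.2 (chr8:116362660-116366780), is closer, at 1.32 kb, and gave 123 and 81 counts in control, 49 and 83 at D4, and 72 and 76 at D7. Its log2 fold change of -0.79 at D4 had an adjusted p of 0.166 in edgeR. In CPM, Sema3b and the nearer lncRNA were lower in both D4 nerves than in both controls, but neither passed. Only the lncRNA farther away passed, in the other direction, and a relation of either lncRNA to Sema3b was not tested. NONRATT011284.2 (chr16:7315419-7316120), 0.029 kb from the end of Sema3g, gave 116 and 92 counts in control, 87 and 158 at D4, and 305 and 264 at D7. Its D7 values were the highest, as for Sema3g, but the log2 fold change of 1.36 against control had an adjusted p of 0.055 in edgeR. At D4 its log2 fold change was 0.06, where that of Sema3g was -0.96. With strand use not given and the gene end this close, the lncRNA and Sema3g may not be independent.

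Other genes of the pathway were taken from a list of 35 by role, all of which were tested. At D4, 6 rose and 5 fell (31.4%), at D7, 4 rose and 7 fell (31.4%), and between D7 and D4 only Nrcam passed, beside 21.9%, 18.8% and 2.18% of all tested genes. Their median log2 fold changes were -0.15, -0.11 and -0.12. Of the 4 A-type plexins, the signalling partners of the neuropilins, Plxna4 (in the table as Plxna4a) rose, from 13.6 and 23.6 CPM in control to 39.5 and 61.8 CPM at D4 and 62.1 and 51.7 CPM at D7. Plxna2 fell at D7 (log2 fold change -1.23 ± 0.22, SE). Plxna1 was at 0.62 and 0.68 and Plxna3 at -0.27 and -0.11 at D4 and D7, under 2-fold.

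Among the adhesion molecules that act as co-receptors, Nrcam stood out in time. It was at 172 and 135 CPM in control, 347 and 377 CPM at D4, and 135 and 137 CPM at D7, so that it was high at D4 alone. It rose at D4 by 1.24 ± 0.13 (SE) on the log2 scale with an adjusted p of 0.000962 in edgeR. From D4 to D7 the value was -1.41 ± 0.13 with an adjusted p of 0.0117 in edgeR. That difference missed the threshold without D4 nerve a (-1.47), D4 nerve b (-1.35) or D7 nerve a (-1.41). Each of these fits leaves 1 group without a replicate. Chl1, of the same family, rose at D7 (1.29 ± 0.14), while L1cam and Cntn2 did not pass. The 5 collapsin response mediator genes, whose proteins carry the semaphorin signal to microtubules, included Crmp1, which rose from 4.07 and 1.99 CPM in control to 29.6 and 35.6 CPM at D4 and 21.5 and 21.2 CPM at D7. Dpysl3 rose at D4 (1.34 ± 0.35) and the other 3 passed at neither time.

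Of the 10 plexin signalling genes, Fes, a tyrosine kinase, rose at D4 (1.61 ± 0.22, SE) and at D7 (1.08 ± 0.22), and Farp2, a guanine nucleotide exchange factor that binds A-type plexins, fell at both times (-1.84 ± 0.14 and -1.50 ± 0.14). The proprotein convertases, which cut class 3 semaphorins, moved in different directions. Furin rose at D4, from 88.7 and 98.0 CPM to 211 and 209 CPM. Pcsk5 fell at D4 and D7 (-1.08 ± 0.17 and -1.75 ± 0.17), as did Pcsk6 (-1.93 ± 0.28 and -2.53 ± 0.29). Of the 8 vascular endothelial growth factor ligands and receptors that share the neuropilins, none rose. Kdr fell at both times (-1.28 ± 0.27 and -1.52 ± 0.27), as did Pgf (-1.43 ± 0.41 and -1.55 ± 0.42), and Flt1 fell at D7 (-1.19 ± 0.22). Kdr and Flt1 are endothelial genes themselves, and of the endothelial markers Cdh5, Tek, Vwf and Emcn were lower in all 4 crushed nerves than in both controls, while Tie1 overlapped. Their part was not tested.

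The semaphorins of classes 4 to 7, most of them bound to the membrane, and the plexins of types B and C made up a list of 17, all tested. At D4, 4 rose and 6 fell (58.8%), at D7, 2 rose and 4 fell (35.3%), and 2 were higher at D7 than at D4, beside the same shares of all tested genes as above. The largest fall in CPM in this list was that of Sema5a, from 2990 and 2451 CPM in control to 142 and 159 CPM at D4 and 276 and 214 CPM at D7 (log2 fold changes -4.18 ± 0.19 and -3.47 ± 0.18, SE). Sema4g fell from 193 and 157 CPM to 6.28 and 8.72 CPM at D4 and was at 37.4 and 24.7 CPM at D7, which was higher than at D4 by 2.05 ± 0.26. That difference missed the threshold in edgeR without D4 nerve a (1.83), D4 nerve b (2.31) or D7 nerve a (1.71). Each of these fits leaves 1 group without a replicate. Sema6c fell at both times (-2.26 ± 0.25 and -1.95 ± 0.24) and Sema6d at D4 (-1.78 ± 0.12). Sema4a rose at both times (1.75 ± 0.15 and 1.43 ± 0.15), and Sema4d rose at D4 (1.40 ± 0.20).

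Among these plexins, Plxnc1, the receptor of Sema7a, rose from 4.22 and 2.83 CPM in control to 32.1 and 23.9 CPM at D4 and 53.9 and 38.4 CPM at D7. Plxnb3 fell at D4, from 206 and 173 CPM to 44.0 and 60.4 CPM, and was at 399 and 259 CPM at D7. That was higher than at D4 by 2.65 ± 0.26 (SE) with an adjusted p of 0.0121 in edgeR. The difference missed the threshold without D4 nerve a (2.44) or D4 nerve b (2.90), fits that leave D4 without a replicate. Plxnb1 fell at both times (-1.50 ± 0.19 and -1.03 ± 0.19) and Plxnb2 rose at D4 (1.27 ± 0.09). Plxnb3, Sema4g and Sema3g had in common that they were low at D4 and higher at D7, with Sema4g still below control at D7. The myelinating Schwann cell genes Prx, Mag and Pmp22, given beside Sema3g, were also higher at D7 than at D4, and their part in these values was not tested.

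**Figure D5:**
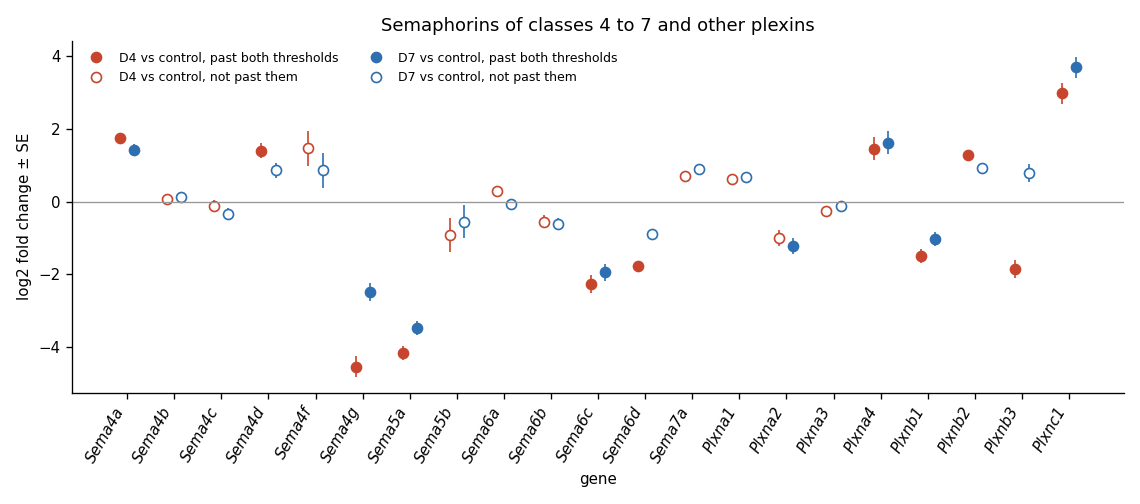
Log2 fold change ± SE against control, at D4 (red) and D7 (blue), of the semaphorins of classes 4 to 7 and of the other plexins. Filled points passed both thresholds; Sema4g and Sema5a are the lowest, at -4.54 and -4.18 at D4, and Plxnc1 is the highest, at 2.98 and 3.70.

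Without TMM factors the tested genes as a whole shifted upward, to medians of 0.25 (D4) and 0.31 (D7) on the log2 scale, and the share of higher among passing genes went from 51.2% to 69.3% at D4 and from 52.1% to 70.4% at D7. The splits of the lists moved with it. The 35 pathway genes went from 6 higher and 5 lower to 8 and 2 at D4, and from 4 and 7 to 5 and 4 at D7. The 17 other semaphorins and plexins went from 4 higher and 6 lower to 6 and 6 at D4, and from 2 and 4 to 6 and 3 at D7. Sema3e remained higher and Sema3d lower at D7 in that setting, and Sema3f had a log2 fold change of -1.05 with an adjusted p of 0.0608 in edgeR.

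The genes whose levels ran most like those of Sema3e and the receptors were found by the Pearson correlation of log2 CPM over the 6 libraries, among 12737 genes with enough signal. For Sema3e these were Slc22a23 (r = 0.9999), Fam19a5 (0.9996) and Gfra1 (0.9996), the last being the receptor subunit for the neurotrophic factor GDNF. Gfra1 went from 169.6 and 132 CPM in control to 1026 and 1234 CPM at D4 and 1233 and 1174 CPM at D7. The closest genes to Nrp1 were Zmpste24 (0.990), Zfp503 (0.984) and Cdyl2 (0.980). To Nrp2 they were Senp1 (0.994), Flywch1 (0.993) and LOC301124 (0.993), and to Plxnd1 they were Fastkd2 (0.998), Adamts14 (0.993) and Dctn3 (0.989). The 6 points share their libraries and fall into 3 groups, and 2061 genes exceeded 0.9 with Sema3e, 27 with Nrp1, 561 with Nrp2 and 735 with Plxnd1, so these names describe likeness of level and nothing more.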

How the data were processed

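Total RNA of 6 rat sciatic nerves (control, D4 and D7, 2 rats each) was sequenced by the authors, aligned with HISAT2 2.0.4 to Rnor_6.0 and assembled and counted with StringTie 1.3.0. The deposited counts are whole fragments per gene or lncRNA and are not normalized, and the authors computed the FPKM values from them. Strand use in counting is not given in the sources used here. The mRNA totals of 18727255 to 25350886 counts per library set the precision of low genes, and with 2 rats a group the adjusted p rests on a spread shared over all 6 libraries.

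The counts were fitted with edgeR 4.0.16 in R 4.3.3 (filterByExpr, TMM, glmQLFit, glmQLFTest, no covariate), and p-values were adjusted by Benjamini-Hochberg over every feature in the fit. A feature passed at an adjusted p under 0.05 and a 2-fold change, the thresholds of the study's methods. FPKM was used only for levels between genes, with no test. The script was tested on simulated data. All 10 genes were named whatever their values, and of the other lists only genes that passed or complete a family; likeness was reported for Sema3e and the receptors. The members and lists were chosen with earlier results of these data known. The alternatives were DESeq2 1.42.0, no TMM factors, other filters, 2-group fits, a replicate block, no fold threshold, and leaving out each library. Same-lettered nerves did not deviate together (r = 0.01, 0.19 and -0.13 for control and D4, control and D7, and D4 and D7), so the letters were not taken as pairs. One marker gene of myelinating Schwann cells is not reported here. The promoter sequences are from RefSeq (GRCr8).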

Additional observations from a re-analysis of the deposited data

Results flagged for a closer look

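The following results differed between the 2 times after crush by the test of that difference itself, the edgeR fit of D7 against D4. Sema3g had a log2 fold change of 1.61 (adjusted p = 0.0117), with D4 below and D7 above control. Nrcam had -1.41 (adjusted p = 0.0117), with only D4 above control. Sema4g had 2.05 (adjusted p = 0.0205), with both times below control. Plxnb3 had 2.65 (adjusted p = 0.0121), with D4 below control and D7 above it in both nerves. The D7 and D4 nerves did not overlap for any of them, where 60.6% of all tested genes did not overlap. These genes were picked by the test on the same nerves, so nothing is read from this. The calls did not hold when either D4 nerve was left out, fits that leave D4 without a replicate. Without D7 nerve a, Nrcam (-1.41) and Sema4g (1.71) missed the threshold, while Sema3g (1.45) and Plxnb3 (2.30) passed. That fit leaves D7 without a replicate. Groups of 2 nerves are too small to look for a nerve far from the others.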

How the results depend on the processing

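The rise of Sema3e at D4 and D7 held in 13 of 13 alternatives, with log2 fold changes of 4.75 to 5.40 and 4.84 to 5.49. Of 390 refitted member values, 361 kept their direction and side of the thresholds, 10 lost the call, 6 gained one and 13 changed sign, and in those 13 the member had not passed. The sign changed without TMM factors for Sema3b at D7 (0.076), Sema3c at D4 (0.030) and D7 (0.011), and Nrp1 at D7 (0.21). Leaving out 1 library changed it for Sema3b at D7 (-0.48 to 0.099), Sema3c between D7 and D4 (-0.16 to 0.12), Sema3e between D7 and D4 (-0.040 to 0.23), and Nrp1 at D4 (-0.082 to 0.27), at D7 (-0.33 to 0.15) and between D7 and D4 (-0.41 to 0.029). With no fold threshold, 3 members passed at D4, and the mRNA counts of 3333 at D4, 2863 at D7 and 331 between D7 and D4 became 6715, 5705 and 710, those of the pathway list 19 at D4 and 2 between D7 and D4, and that of the other semaphorins and plexins 12 at D7. DESeq2 called 2 members and 509 mRNAs between D7 and D4, and a fit of only those 2 groups 2 members. Leaving out each library in turn gave 1 to 2 members at D4, 1 to 3 at D7 (1 without D7 nerve a) and 0 to 2 between D7 and D4, where mRNAs ranged from 0 (without either D4 nerve) over 99 (without D7 nerve a) to 469, the pathway list from 0 to 4 and the other semaphorins and plexins from 0 to 3. At D4 the pathway list ranged from 7 (without D4 nerve b) to 12. The replicate block gave 3281, 2827 and 248 mRNAs and changed no member call, and with the D4 letters exchanged, a pairing added after seeing the data, 334 mRNAs and 2 pathway genes passed between D7 and D4. With 2 nerves a group, changes in the members with the larger errors (SE up to 0.44 on the log2 scale) could be missed even above 2-fold. Sema3a between D7 and D4, at -1.38 with an adjusted p of 0.121 in edgeR, was such a case. Changes under 2-fold could not pass in any member, since the fold threshold excludes them.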

Other observations

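The lncRNA NONRATT021144.2 (chr4:14318276-14319961, Rnor_6.0), which lies inside Sema3c, gave 1108 counts in control nerve a and 2 to 3 counts in each of the other 5 libraries. It did not pass the filter on low counts and was not tested, and Sema3c itself was at 224 CPM in that nerve and 202 CPM in control nerve b. The genes that ran most like Sema3g, looked at after its values were seen, were Ggh (r = 0.999), Csrp2 (0.997) and Nlgn3 (0.997). Nlgn3 was at 46.7 and 45.3 CPM in control, 16.8 and 21.0 CPM at D4, and 95.8 and 66.0 CPM at D7.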
